A study of Mus musculus with 14 samples.

Results

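The genotype effect common to striatum and cerebellum was measured by setting Thap1 conditional knockout (cKO) mice against wildtype (WT) littermates over both tissues at once. All 14 of the 14 sequenced samples entered 1 additive model of tissue plus genotype, in which a gene has 1 genotype effect for both tissues. There were 3 WT and 3 Thap1 cKO samples of striatum and 4 WT and 4 Thap1 cKO samples of cerebellum. The mice were on the C57Bl/6 background and 6 months of age. Total RNA of microdissected, flash-frozen tissue was sequenced. The sources used here do not give the Cre driver, the cells it acts in or the deleted part of Thap1. They do not say that replicates are separate animals either, and p-values then reflect only how far these samples spread, which may be technical. In such bulk tissue, fewer cells of a type and less RNA per cell cannot be told apart.

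THAP1 is a transcription factor that binds DNA through a zinc-coordinating THAP domain, and mutations in its gene cause the movement disorder DYT6 dystonia. It is known to act with the partner proteins HCFC1 and OGT, and with YY1, another zinc finger factor, in the oligodendrocyte lineage. Its loss is known to delay the maturation of oligodendrocytes, the cells that make myelin.

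Striatal libraries held between 12595941 and 14258141 counts, and cerebellar ones between 19458954 and 28099205. By Xist and Y-linked counts, each striatal group had 1 male sample and each cerebellar group 2, and the sexes were thus balanced between genotypes. Striatal WT replicate 1 stood apart, with a score of −56.3 on striatal principal component 1 against 0.986 to 16.4 for the other 5. Without it, 611 genes were called in both tissues together, in place of 368. The count was 245 without striatal cKO replicate 1, 233 without cerebellar WT replicate 3, and 242, 232 and 243 without cerebellar cKO replicates 1, 2 and 4. Levels below are CPM (reads scaled to a common library size) scaled over all 14 libraries, and log2 fold changes are cKO over WT, so negative values are lower in cKO. A gene is called at an adjusted p under 0.05 in edgeR's quasi-likelihood test.

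Thap1 itself was lower in the cKO libraries of both tissues. In striatum it stood at 13.996, 15.4 and 16.4 CPM in WT and at 5.597, 8.15 and 4.02 CPM in cKO. In cerebellum it stood at 9.85, 7.81, 10.1 and 7.95 CPM in WT and at 6.95, 7.07, 7.39 and 6.51 CPM in cKO. Each cKO library was below each WT library of its tissue, and the fall was to 38.9% of the WT mean in striatum and to 78.3% in cerebellum. An exact two-sided permutation test of log2 CPM, with genotypes exchanged within tissues, gave a mean difference of −0.87 and p = 0.00143, the smallest that its 1400 arrangements allow. The common log2 fold change was −0.75 (SE 0.169, adjusted p = 0.0271). The call was lost without striatal cKO replicate 1 or 2, cerebellar WT replicate 1 or 3, or cerebellar cKO replicate 4. The counts cover the whole gene (chr8:26158169-26164151, GRCm38), so reads from any part left undeleted are included.

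Over both tissues, 368 of 15401 tested genes were called (2.39%), 107 higher (0.695%) and 261 lower in cKO (1.69%). With upper-quartile scaling 60.6% of the calls were lower, against 70.9% here. Most effects were small: the median size was 0.39 on the log2 scale, 279 genes changed by less than 1.5-fold and 36 by at least 2-fold. The same libraries fitted by tissue gave 54 of 14080 genes in striatum alone (0.384%) and 1121 of 14775 in cerebellum alone (7.59%). Of the 368 genes, 325 were not called in striatum alone, 98 of them higher and 227 lower, and 56 were called in neither tissue alone. The common fit and the fits by tissue share their libraries, so these counts compare models and not independent samples.

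A gene is described here as having moved alike when 4 conditions held. It was called in both tissues together, it had the same direction in each, its genotypes overlapped in neither tissue, and the difference between the tissues was not called. The last condition means only that no difference was detected, since the interaction test called 60 of 15401 genes (0.39%). Genes that moved alike numbered 216 (1.4% of those tested), 79 higher and 137 lower in cKO. Among all tested genes, 359 had genotypes that did not overlap in either tissue, in 1 direction (2.33%). Of the 216 genes, 183 were not called in striatum alone, 71 higher and 112 lower. The median size of all 216 was 0.47 on the log2 scale in striatum and 0.31 in cerebellum, and 153 of them had the larger value in striatum. Over all tested genes the medians were 0.13 and 0.08, and 8744 had the larger value in striatum. Leaving out any 1 library kept the call of 138 of the 216, 59 higher and 79 lower.

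The tissues share no library, so the direction in one can be set beside the calls of the other. Whether striatal and cerebellar libraries came from the same mice is not stated, so they need not be independent samples. Of 1072 genes called in cerebellum alone and tested in striatum, 691 (64.5%) had the same direction there, against 55.8% of all 13685 genes tested in both. Of the same 1072, 187 (17.4%) had both the same direction and a striatal unadjusted p under 0.05, against 697 of all genes (5.09%). Of the 54 genes called in striatum alone, 51 had the same direction in cerebellum. In 45 of the 54 (83.3%) the direction was the same and the cerebellar unadjusted p was under 0.05, against 1930 of all genes (14.1%). Across all genes the log2 fold changes of the 2 tissues had a Pearson correlation of 0.252, and genes are not independent replicates. Sharing of direction was thus nearly complete for striatal calls and partial for the far more numerous cerebellar ones. The 2 sets differ in size of effect, with a median of 0.96 in striatum for the striatal calls and 0.24 in cerebellum for the cerebellar calls. What this difference in size contributed was not tested.

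**Figure D1:**
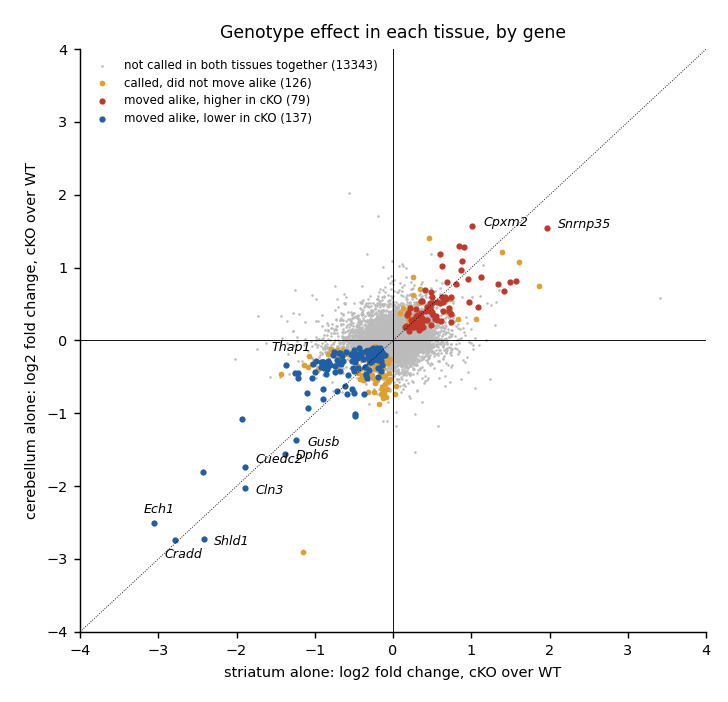
Log2 fold change (cKO over WT) in striatum alone on the x axis and in cerebellum alone on the y axis, 1 point for each of the 13685 genes tested in both tissues, with the dotted line marking equal values. Genes that moved alike fill the lower left and upper right quadrants, with Ech1, Cradd, Shld1 and Cln3 farthest down and Snrnp35 and Cpxm2 farthest up among the labelled genes, and most lie close to the origin.

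Ech1, Cradd, Shld1 and Cln3 fell steeply in both tissues. Ech1, a dienoyl-CoA isomerase of fatty acid oxidation (chr7:28825338-28832239), stood at 30.4, 46.4 and 47.4 CPM in WT striatum and at 4.94, 5.56 and 4.44 CPM in cKO striatum. In cerebellum its WT libraries stood at 47.5, 42.5, 46.2 and 44.3 CPM and its cKO libraries at 9.63, 7.20, 8.51 and 6.28 CPM. Every cKO library was thus far below every WT library, and the common log2 fold change was −2.71 (SE 0.127, adjusted p = 1.70e-09). Cradd, an adaptor that links caspase-2 to its activating complex (chr10:95174739-95324138), fell by 2.77 on the log2 scale (SE 0.138), with single-tissue values of −2.79 in striatum and −2.74 in cerebellum. Its WT libraries ran from 5.70 to 8.86 CPM in striatum and from 4.66 to 5.85 CPM in cerebellum. In cKO they ran from 0.945 to 1.26 CPM and from 0.611 to 0.940 CPM.

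Shld1, a subunit of the shieldin complex that protects broken DNA ends, is listed in the files under its older symbol 1110034G24Rik (chr2:132686931-132751055). It stood at 6.74, 9.54 and 9.12 CPM in WT striatum and at 1.45, 1.94 and 1.34 CPM in cKO striatum. Cerebellar values were 8.46, 8.89, 9.01 and 9.65 CPM in WT and 0.986, 1.396, 1.58 and 1.36 CPM in cKO. The 2 tissues gave nearly the same levels in each genotype, with a common log2 fold change of −2.63 (SE 0.124, adjusted p = 1.19e-09). Cln3, the lysosomal membrane protein lost in juvenile Batten disease (chr7:126571207-126585817), had the smallest p of all genes (adjusted p = 1.95e-10). It stood at 12.3, 14.9 and 14.7 CPM in WT striatum and at 3.78, 4.11 and 3.35 CPM in cKO striatum. Its cerebellar WT libraries lay between 14.3 and 14.9 CPM and its cKO libraries between 3.16 and 4.04 CPM, a common log2 fold change of −1.99 (SE 0.0802).

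Several enzymes with unrelated duties fell beside them. Cuedc2, a ubiquitin-binding protein (chr19:46329812-46338672), fell by 1.80 on the log2 scale, with −1.90 in striatum and −1.73 in cerebellum. Its cerebellar cKO libraries lay between 29.7 and 30.9 CPM, below WT libraries of 96.9 to 106 CPM. Dph6, listed as Atpbd4, makes the diphthamide residue of elongation factor 2 and fell by 1.48 (SE 0.0899). Gusb, the lysosomal beta-glucuronidase, fell by 1.32 on the log2 scale. Ehd3, which acts in endocytic recycling, fell by 0.89, and Mettl3, the catalytic subunit of the RNA m6A methyltransferase, by 0.85. The adhesion molecule Mcam fell by 0.75, the serine hydrolase Prepl by 0.71 and the mitochondrial fusion factor Miga1, listed as Fam73a, by 0.63. Of the genes in this group Prepl had nearly equal values, at −0.71 in striatum, −0.70 in cerebellum and a difference of −0.00406 between them (SE in the common fit 0.0436). All of these genes were also called in each tissue alone.

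Snrnp35 and Aars2 were among the genes that rose in both tissues. Snrnp35, a protein of the U11/U12 particle of the minor spliceosome (chr5:124483081-124493586), stood at 6.05, 6.94 and 7.50 CPM in WT striatum and at 26.7, 26.5 and 26.9 CPM in cKO striatum. In cerebellum it stood at 7.41, 11.2, 7.005 and 9.13 CPM in WT and at 21.3, 23.5, 28.7 and 26.5 CPM in cKO. Snrnp35 rose in every cKO library of both tissues, with a common log2 fold change of 1.69 (SE 0.113, adjusted p = 6.04e-08). Aars2, the mitochondrial alanyl-tRNA synthetase (chr17:45503515-45520843), had the smallest p among the increases (adjusted p = 2.00e-08). It stood at 22.1, 22.2 and 26.5 CPM in WT striatum and at 51.5, 49.4 and 53.9 CPM in cKO striatum. Its cerebellar levels rose from between 46.6 and 53.7 CPM to between 90.4 and 95.0 CPM, so that the tissues differed about as much as the genotypes, and the common log2 fold change was 0.97 (SE 0.0581).

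Racgap1, a component of the centralspindlin complex of dividing cells (chr15:99620496-99651656), rose by 1.11 on the log2 scale (SE 0.0785). Its cKO libraries lay between 25.0 and 27.4 CPM in striatum, above WT libraries of 12.3 to 15.8 CPM, and between 39.0 and 40.3 CPM in cerebellum, above 15.2 to 17.3 CPM. Cyb5d2, which has a cytochrome b5 domain, rose by 1.12, and Dnlz, a partner of the mitochondrial Hsp70 chaperone, by 0.88. Imp4, a factor of ribosomal RNA processing, rose by 0.60, with 0.62 in striatum and 0.60 in cerebellum. These 6 risen genes were called in each tissue alone as well.

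**Figure D2:**
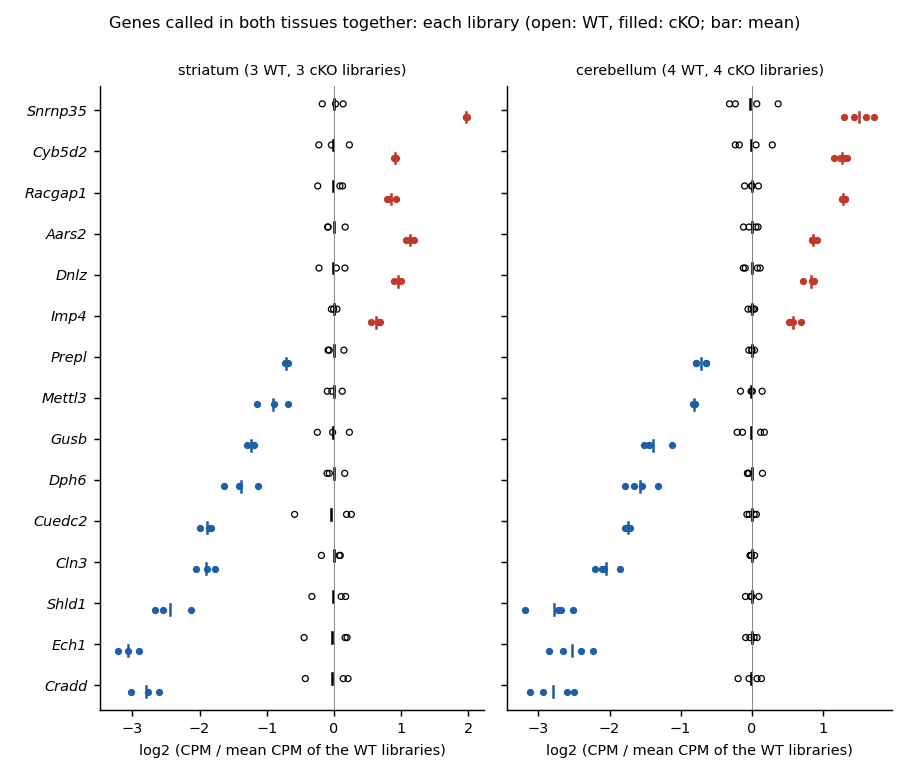
Log2 ratio of each library's CPM to the mean CPM of the WT libraries of its tissue (x axis) for 15 genes called in both tissues together, with striatum left and cerebellum right, open circles for WT, filled circles for cKO (red higher, blue lower) and bars for the mean of the points. No filled circle overlaps the open circles of its gene in either tissue, which the definition of moving alike requires of these genes. The order of the genes is much the same in both panels.

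A larger group moved alike but was not called in striatum alone, where 3 samples per genotype were compared. The 10 risen and 10 fallen genes of smallest p in this group had striatal adjusted p from 0.0606 to 0.688. Nars, the cytosolic asparaginyl-tRNA synthetase, stood at 168, 169 and 163 CPM in WT striatum and at 225, 247 and 225 CPM in cKO striatum. In cerebellum it stood at 255, 252, 270 and 271 CPM in WT and at 352, 363, 375 and 389 CPM in cKO. Each cKO library exceeded each WT library of its tissue, and the log2 fold change was 0.47 in striatum, 0.51 in cerebellum and 0.49 in common (SE 0.0381, adjusted p = 4.05e-07). The striatal test alone gave Nars an adjusted p of 0.0606. Prpsap1, which associates with the enzyme that makes PRPP for nucleotide synthesis, rose by 0.57 in common (SE 0.0552). Its striatal libraries stood at 34.9, 35.8 and 39.9 CPM in WT and at 54.2, 46.0 and 47.0 CPM in cKO. Cerebellar WT libraries lay between 43.6 and 45.2 CPM and cKO libraries between 69.8 and 71.2 CPM, a much tighter separation than in striatum.

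Galc, the lysosomal galactosylceramidase that degrades a lipid of myelin, rose by a small amount in both tissues. It stood at 46.1, 47.5 and 44.1 CPM in WT striatum and at 57.9, 54.2 and 56.6 CPM in cKO striatum, with a striatal adjusted p of 0.433. In cerebellum it stood at 36.9, 37.3, 35.3 and 38.7 CPM in WT and at 46.3, 46.1, 46.3 and 46.5 CPM in cKO. The genotypes were separate in both tissues, and Galc rose by 0.29 in striatum, 0.33 in cerebellum and 0.31 in common (SE 0.0385, adjusted p = 0.000146). Lyrm1, a small LYR-motif protein, rose by 0.92 and the carboxypeptidase-like Cpxm2 by 1.43 on the log2 scale. Cpxm2 was scarce in striatum, at 0.946 to 1.04 CPM in WT and 1.59 to 2.54 CPM in cKO. Csad, an enzyme of taurine synthesis, rose by 0.41, the lysosomal membrane protein gene Gpr137 by 0.47, Nif3l1 by 0.49 and the zinc finger gene Zfp597 by 0.43. Acot1, an acyl-CoA thioesterase, rose by 0.77, and its count is uncertain because near-identical Acot genes lie beside it.

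Among the weak decreases, Chmp2b, a subunit of the ESCRT-III membrane-remodelling complex, stood at 58.5, 64.7 and 68.2 CPM in WT striatum and at 54.0, 45.6 and 49.9 CPM in cKO striatum. Its cerebellar libraries lay between 53.4 and 60.8 CPM in WT and between 42.8 and 45.6 CPM in cKO. Chmp2b thus fell by nearly the same amount in both, −0.36 in striatum and −0.37 in cerebellum (common log2 fold change −0.37, SE 0.0495, adjusted p = 0.000364). Slc12a9, of the cation-chloride cotransporter family, fell by 0.63, Mfsd13a, a transporter-like protein listed as Tmem180, by 0.79 and Ippk, the kinase that makes inositol hexakisphosphate, by 0.46. Dpagt1, which starts the lipid-linked glycan for N-glycosylation, fell by 0.60. The raft protein gene Rftn1 fell by 0.52, the zinc finger gene Zfp563 by 0.37, N4bp1 by 0.29 and the RNA-binding protein gene Carhsp1 by 0.29. Naa60, a Golgi N-terminal acetyltransferase listed as Nat15, fell by 0.37. Naa60 and Zfp597, which moved in opposite directions, overlap on opposite strands, and unstranded counting could not tell their shared reads apart. Over all 79 genes checked, 32 share exon bases with another annotated gene, 26 of them on the opposite strand, with Cln3, Cuedc2, Prepl and Mettl3 among the latter.

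**Figure D3:**
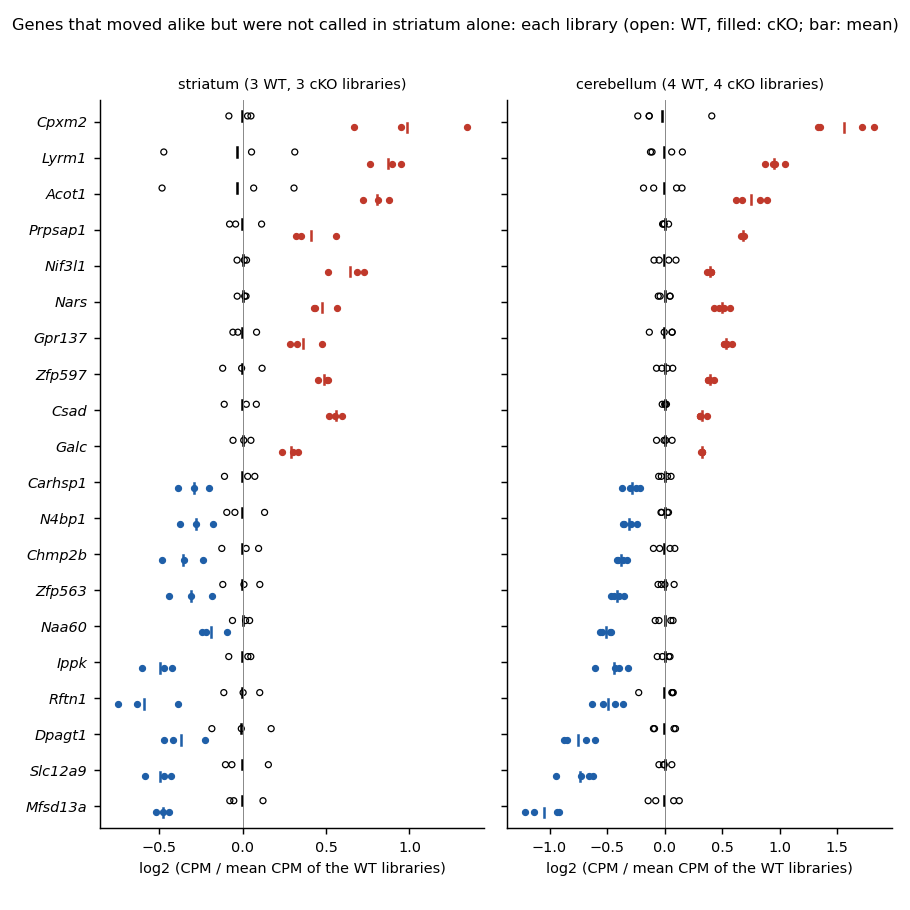
Log2 ratio of each library's CPM to the mean CPM of the WT libraries of its tissue (x axis) for 20 genes that moved alike but were not called in striatum alone, drawn as open circles for WT, filled circles for cKO (red higher, blue lower) and bars for the mean. The genotypes are separate in both panels, as the definition of moving alike requires. The points of a group are spread more widely in striatum than in cerebellum for most of the genes.

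Pooling also called 27 genes that moved alike and were called in neither tissue alone, 6 higher and 21 lower. Atp8b1, a phospholipid flippase subunit, was the firmest of them. It stood at 5.18, 3.71 and 4.17 CPM in WT striatum and at 1.67, 1.77 and 2.18 CPM in cKO striatum. Its cerebellar levels were 1.53, 1.87, 1.57 and 2.10 CPM in WT and 1.41, 1.09, 1.31 and 1.32 CPM in cKO. The gap was wide in striatum and narrow in cerebellum, and Atp8b1 fell by 0.78 in common (SE 0.158, adjusted p = 0.0125), whichever library was left out. The zinc finger gene Zfp180 fell by 0.19, with the call lost without striatal cKO replicate 1 or cerebellar WT replicate 3. The glycolipid transfer protein gene Gltp fell by 0.24, with the call lost without striatal cKO replicate 1. The junction protein gene Jam3, Frmd8 and Cyp2j12 fell by 0.27, 0.38 and 0.57 with all libraries, and their calls were lost in 5, 5 and 6 of the 14 fits that left out 1 library. The risen genes were weaker still. The calls of Kcne1l, Capn6, Ttll8, Clec7a and Egln3, at log2 fold changes of 0.43, 0.62, 0.55, 0.93 and 0.33, were lost in 8 to 12 of those 14 fits.

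Promoter sequence was not used to choose these genes, and it was read from RefSeq windows on GRCm38.p6 that run from 250 bases before to 50 bases after a transcript start. Of the 216 genes that moved alike, 176 matched a window. Among them, letters of a YY1-type core (AANATGGC, either strand) were in 18.1% of the windows of fallen genes and 28.4% of those of risen genes, against 7.29% of all windows of tested genes. The THAP1-type letters TNNGGGCA were in 23.5% and 33.0%, against 14.2%. A different motif, TNNNNNGGCA, has the T farther from GGCA and was the THAP1 core fixed in the plan. It was in 34.2% and 26.1%, against 38.0%, so it was not more frequent in either group. These were 3 of 8 motifs searched. GGCA alone was in 93.7% of all windows, and the other spellings (CCATNTTG, a ZNF143-type motif and a pair of ACTACA elements) were in at most 5.42% of them.

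Part of the THAP1-type letters and the YY1-type letters formed 1 element with a spacing of 6 bases. It was in 18 of the 176 genes that moved alike and had a window. The T of TNNGGGCA is not required in it, and TGCCC alone was in windows of 7499 of the 12033 tested genes. It reads TGCCC, which is the reverse complement of GGGCA, then 6 bases of any kind, then AANATGGC. The spacing was noticed in these genes and then counted for gaps of 0 to 15 bases, so it is a description. The element, TGCCCNNNNNNAANATGGC on either strand, was in 63 of 32851 RefSeq windows (0.192%), and 54 of the 58 genes that hold it were tested. Of these 54 genes 22 were called in both tissues together (40.7%), against 294 of the 12033 tested genes with any window (2.44%). Called genes with the element were 14 higher and 8 lower in cKO, and 18 of the 22 moved alike, 12 higher and 6 lower. All 22 had the same direction in striatum and cerebellum, as did 340 of all 368 called genes, and 16 of the 22 were not called in striatum alone, as were 325 of the 368. With both sets of letters at the other 15 spacings, 18 genes without the 6-base form were tested, and edgeR called 0 in common. Of the 18, 1 was called in cerebellum alone. An unadjusted p under 0.05 was found for 2 of the 18, against 14.1% of all tested genes with a window. Against a background of 2.44% called, 18 genes are too few for 0 calls to set these spacings apart. Cdk5rap2, which was called, holds both the 6-base form and a gap of 10 bases. Genes with TGCCC and AANATGGC anywhere in their windows but not as this element were called in 28 of 620 cases (4.52%). Depending on which library was left out, 18 to 25 of the genes with the element were called.

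**Figure D4:**
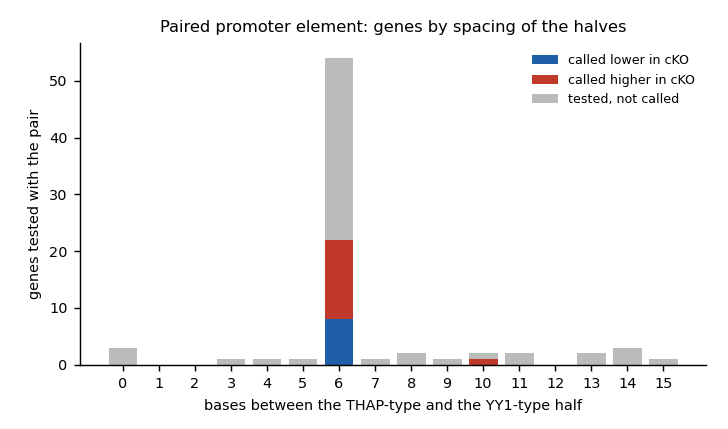
Number of tested genes (y axis) whose RefSeq promoter window holds TGCCC and AANATGGC on the same strand, by the number of bases between them (x axis). Blue marks genes called lower in cKO, red genes called higher and grey genes not called. The spacing of 6 bases holds 54 genes, 22 of them called, and no other spacing holds more than 3.

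Elements of 10 of the 22 called genes, chosen after their values were seen and not ranked by size, are shown so that risen and fallen genes can be compared letter by letter. Each is written 5′ to 3′ on the strand that reads TGCCC first, with the fixed letters in capitals. The search required these fixed letters, so fallen and risen genes share them by construction, and only the lower-case letters can differ:
Ech1, first element: TGCCCttagtaAAgATGGC
Ech1, second element: TGCCCttgaccAAcATGGC
Shld1: TGCCCtcagttAAgATGGC
9130019O22Rik: TGCCCtcatcaAAaATGGC
Slc17a5: TGCCCgaaactAAaATGGC
Racgap1: TGCCCttagtcAAaATGGC
Aars2: TGCCCggagctAAgATGGC
Slx4ip: TGCCCaaacgaAAaATGGC
Imp4: TGCCCcatcttAAgATGGC
Wdr46: TGCCCtcacttAAcATGGC
Cdk5rap2: TGCCCtgagttAAgATGGC

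In Ech1 the elements lie at −131 to −113 and −62 to −44 from the transcript start, in Shld1 at −97 to −79 and in Racgap1 at −134 to −116. In Aars2 the element lies just past a start, at 9 to 27. Both Ech1 elements lie in chr7:28825198-28825303, which is printed with the elements in mixed case and the rest in lower case because the pair stands in 1 short stretch:
Ech1, −140 to −35: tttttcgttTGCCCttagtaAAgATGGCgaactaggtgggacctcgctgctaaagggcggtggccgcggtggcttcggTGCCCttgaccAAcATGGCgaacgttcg

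Of the 25 elements of called genes, 13 of 15 in risen genes and 9 of 10 in fallen genes began before the transcript start. They read on the strand of the gene in 9 of 15 and 8 of 10. Among genes not called, 32 of 34 elements began before the start. Slx4ip, listed as 2210009G21Rik, rose by 0.93, Wdr46 by 0.42 and Cdk5rap2 by 0.38. The lysosomal sialic acid transporter gene Slc17a5 fell by 0.38 and the zinc finger gene 9130019O22Rik by 1.96. These 5 were chosen after their values were seen.

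Without the first T, the element was in 99 genes, of which 89 were tested and 35 called (39.3%), 18 higher and 17 lower. These counts include the 54 tested and 22 called genes that hold the T. On the other strand this T is the A of GGCA, so the wider form does not require GGCA there. The genes listed next hold c or a in its place. This wider form includes several of the genes named above:
Cradd: cGCCCtcaacaAAgATGGC
Cyb5d2: cGCCCtcaacaAAgATGGC
Cuedc2: cGCCCttctcaAAaATGGC
Prepl: cGCCCtcacttAAgATGGC
Mfsd13a: aGCCCattacaAAcATGGC
Galc: aGCCCtcacttAAgATGGC
Zfp764: aGCCCtcatcaAAaATGGC
The elements of Cradd and Cyb5d2 are identical in all 19 letters, yet Cradd fell by 2.77 and Cyb5d2 rose by 1.12 on the log2 scale. Zfp764, chosen after its value was seen, fell by 1.31 and lies on chromosome 7 beside 9130019O22Rik. Both are zinc finger genes of 1 cluster with similar sequence, so reads could be split between them.

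Most carriers of the element were not called. They were 32 of the 54 genes, and 5 pairs of neighbouring genes share an element. Imp4 was called beside Ccdc115 and Mrpl47 beside Ndufb5, each called gene with an uncalled partner. Rrm1, the large subunit of ribonucleotide reductase and a gene reported as a THAP1 target, holds 2 such elements:
Rrm1, first element: TGCCCacacccAAtATGGC
Rrm1, second element: TGCCCacactcAAtATGGC
Its common log2 fold change was 0.07 (SE 0.0457, adjusted p = 0.489). WT libraries of Rrm1 lay between 25.4 and 28.4 CPM in striatum and cKO libraries between 26.0 and 29.1 CPM, so the genotypes overlapped.

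Gene lists were used to describe the common effect by cell type and pathway, and no set test was run. Beside each list stands the background over all genes, a median log2 fold change of −0.00053 and 2.39% called. Of 16 genes of mature oligodendrocytes and myelin, 11 fell in common, and all 16 were below 0, with a median of −0.46. The medians were −0.83 in striatum and −0.19 in cerebellum. Fa2h, which makes the hydroxylated lipids of myelin, stood at 71.5, 51.9 and 60.5 CPM in WT striatum and at 31.3, 36.4 and 35.1 CPM in cKO striatum. In cerebellum it stood at 34.0, 39.5, 36.6 and 38.4 CPM in WT and at 28.7, 25.9, 29.1 and 28.6 CPM in cKO. Fa2h thus fell without overlap in both, by 0.84 and 0.39, and by 0.59 in common (SE 0.0838, adjusted p = 0.000713). The myelin glycoprotein Mog fell by 0.46 and the tight junction protein Cldn11 by 0.56. Of the 11 called genes 6 moved alike, and 3 differed between the tissues by the interaction test. Without striatal cKO replicate 1 or 3, 7 of the 16 were called. The summed level of the list ran from 8656 to 10646 CPM in WT striatum and from 5574 to 6877 CPM in cKO striatum, and from 5659 to 6239 CPM and from 4941 to 5478 CPM in cerebellum. Of 10 oligodendrocyte precursor genes 0 were called, with a median of −0.08. The summed precursor level was 456 to 474 CPM in cKO striatum against 491 to 591 CPM in WT, and 246 to 255 CPM against 242 to 259 CPM in cerebellum.

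Of 13 astrocyte genes 3 were called, all higher in cKO, while 6 of the 13 were above 0 and 7 below. Gfap, the intermediate filament of astrocytes, stood at 79.7, 42.6 and 80.8 CPM in WT striatum and at 193, 266 and 147 CPM in cKO striatum. Its cerebellar levels were 174, 198, 188 and 169 CPM in WT and 310, 286, 345 and 328 CPM in cKO. Gfap was higher in every cKO library of both tissues and rose by 1.12 (SE 0.178, adjusted p = 0.00432). The water channel gene Aqp4 rose by 0.54 and the gap junction gene Gja1 by 0.23, the latter with overlap in striatum and with the call lost in 8 of 14 fits without 1 library. These 3 were the called members among 13 astrocyte genes, whose median was −0.01. The summed level of the 13 was 8045 to 9204 CPM in WT striatum and 8466 to 9028 CPM in cKO striatum. In cerebellum it was 7936 to 8451 CPM in WT and 7809 to 8451 CPM in cKO, so the sums overlapped in both tissues. Of 12 reactive astrocyte genes 2 rose, Gfap and the protease inhibitor gene Serpina3n (0.62, genotypes overlapping in cerebellum), with a median of 0.23. Without striatal WT replicate 1 the count was 4, without 11 of the other libraries it was 1, and the call of Serpina3n was lost in 11 of 14 fits without 1 library. By tissue, the reactive list had medians of 0.01 in striatum and 0.33 in cerebellum. Its summed level was 218 to 274 CPM in WT striatum against 321 to 452 CPM in cKO, and 405 to 452 CPM against 536 to 621 CPM in cerebellum. Gfap is part of these sums, and its own rise in CPM was about as large as theirs in both tissues. The overlap of Gfap with both lists means that they are not separate evidence.

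Markers of the other cell types held 0 called genes in common by edgeR. They were 13 microglial, 12 endothelial and pericyte, 8 meningeal, 8 choroid plexus, 7 ependymal, 18 pan-neuronal, 16 striatal projection neuron, 12 granule cell and 12 Purkinje cell genes. Choroid plexus had the median of largest size, 0.43, and its summed level was uneven, from 31.6 to 2138 CPM in WT cerebellum and from 712 to 3467 CPM in cKO cerebellum. Its part in the other results was not tested. Its median lay between 0.11 (without cerebellar WT replicate 3) and 0.68 (without cerebellar cKO replicate 4) when 1 library was left out. Its striatal sums were 38.9 to 59.7 CPM in WT and 52.0 to 207 CPM in cKO. Meningeal genes had a common median of 0.23 but opposite medians by tissue, −0.29 in striatum and 0.41 in cerebellum, where 3 were called. Their summed level in cerebellum was 199.9 to 248.6 CPM in WT and 289 to 351 CPM in cKO, without overlap, and its part in the other results was not tested. The common median was 0.43 without striatal WT replicate 1 and 0.16 without striatal WT replicate 2. Medians were 0.30 for ependymal and −0.12 for granule cell genes, and between −0.06 and 0.07 for the remaining 5. All 12 granule cell genes were below 0, and 3 were called in cerebellum alone. Their cerebellar sums were 6874 to 7782 CPM in WT and 6514 to 6867 CPM in cKO, narrowly without overlap. Purkinje sums in cerebellum were 11096 to 11570 CPM in WT and 11616 to 12666 CPM in cKO. In striatum the Purkinje list went the other way, 4042 to 4398 CPM in WT and 3699 to 4021 CPM in cKO, and granule sums overlapped.

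Metabolic and housekeeping lists had few calls. Of 74 oxidative phosphorylation genes 72 were above 0 and 1 rose, the complex I subunit gene Ndufb4 (0.67, adjusted p = 0.0440). Its call held without striatal WT replicate 1 or cerebellar WT replicate 4 and was lost without any of the other 12 libraries. Their median was 0.17, with 0.36 in striatum and 0.07 in cerebellum, and 0.07 without striatal WT replicate 1, where 6 were called higher and 1 lower. Of 76 mitochondrial ribosomal protein genes 2 rose, Mrpl36 by 0.50 and Mrpl47 by 0.24, and of 73 cytosolic ribosomal protein genes 0 were called, with medians of 0.09 and 0.07. Without striatal WT replicate 1 the mitochondrial ribosomal median was 0.01 and the cytosolic one −0.03. By tissue, the cytosolic list had medians of 0.22 in striatum and −0.02 in cerebellum, and 28 of its 73 genes had the same direction in both. Of 31 proteasome subunit genes 30 were above 0 and 1 was called, Psmb5, a catalytic subunit, which fell by 0.52 (adjusted p = 0.0464). The proteasome median was 0.10, and 0.05 without striatal WT replicate 1. Psmb5 was at −0.09 in striatum and −0.78 in cerebellum, and its call was lost in 11 of 14 fits without 1 library. Its promoter holds the paired element in 2 copies.

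Among 37 aminoacyl-tRNA synthetase genes Aars2 and Nars rose, and both moved alike. Of 43 lysosomal genes Cln3 and Gusb fell and Galc rose, with a list median of 0.01. Of 5 reported THAP1 targets Shld1, Gusb and Psmb5 fell, at a median of −0.52. Of 26 fatty acid oxidation genes Ech1 and Echdc2 fell, and Echdc2 did so through cerebellum, at 0.03 in striatum and −0.74 in cerebellum. Os9, a lectin of endoplasmic reticulum quality control, was the 1 called gene of 22 in the unfolded protein response list. It rose by 0.46 in common (SE 0.0606, adjusted p = 0.0003), with 0.47 in striatum and 0.46 in cerebellum. Asns, the asparagine synthetase, rose by 0.18 and was the 1 called gene of 21 in the integrated stress response. Of 22 cholesterol synthesis genes, the regulator Srebf2 fell by 0.23. Of 28 cell cycle genes Racgap1 rose and Anln fell, and of 15 interferon genes Stat2 fell by 0.21. Among 20 genes of monogenic dystonia Prrt2 rose by 0.30 and Tubb4a fell by 0.24. Snrnp35 was the 1 called gene of 9 in the minor spliceosome, Shld1 of 14 in DNA end protection and Ppp2r3c of 16 in protein phosphatase 2A. The calls of Mrpl47, Asns, Echdc2, Srebf2, Stat2 and Tubb4a were lost in 6 to 12 of 14 fits without 1 library. Of 12 THAP family and partner genes, 16 immediate early, 24 glutamate receptor and 15 GABA receptor genes 0 were called, with medians between −0.06 and −0.01.

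**Figure D5:**
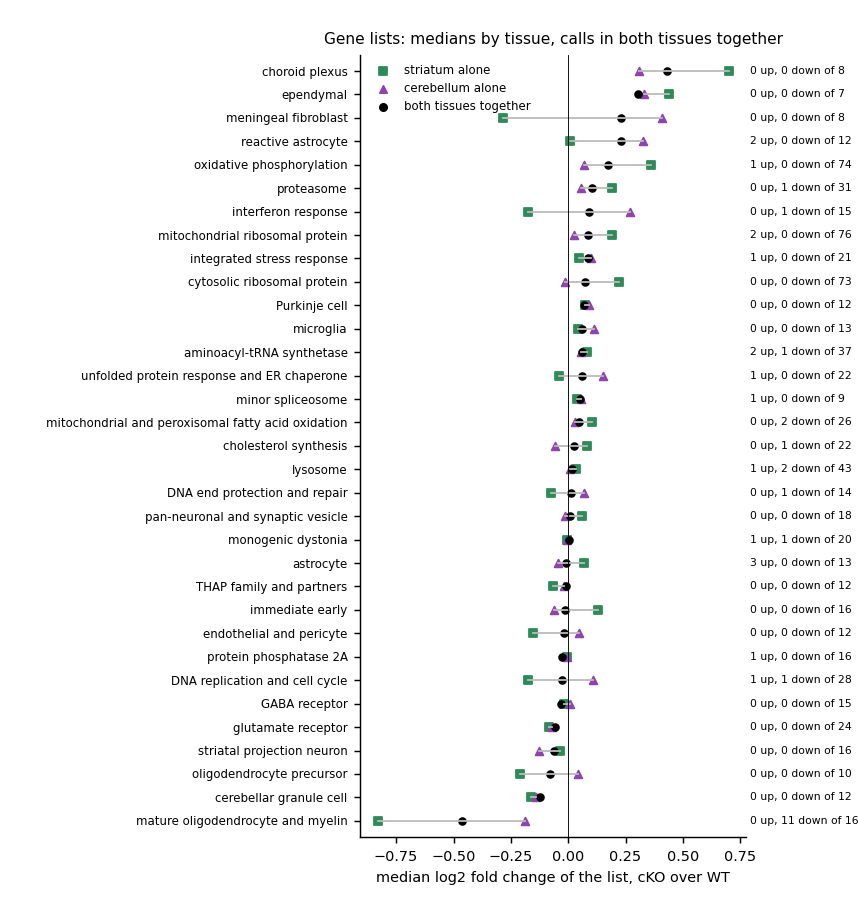
Median log2 fold change (cKO over WT, x axis) of each gene list with at least 7 measured members, in striatum alone (green squares), cerebellum alone (purple triangles) and both tissues together (black circles), with the number of genes called higher and lower in both tissues together at the right. The myelin list lies farthest left, at −0.83, −0.19 and −0.46, and the oxidative phosphorylation list has positive medians in all 3.

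Of the 368 called genes, 216 moved alike and the others did not. Among the 340 with the same direction in each tissue, the genotypes overlapped in striatum for 81 and in cerebellum for 34. Of the 368, 2 had opposite directions in the 2 tissues, and 12 differed between the tissues by the interaction test. The fit of at least 1 tissue alone lacked 26 of the 368. A gene can fall under more than 1 of these. Ppp2r3c, which encodes a B-type subunit of the phosphatase PP2A (chr12:55280809-55303239), stood at 9.33, 11.2 and 10.4 CPM in WT striatum and at 30.2, 34.0 and 30.3 CPM in cKO striatum. In cerebellum it stood at 18.3, 18.5, 16.4 and 17.6 CPM in WT and at 36.9, 37.7, 35.3 and 38.0 CPM in cKO. Ppp2r3c rose in every cKO library, by 1.61 in striatum and 1.07 in cerebellum, and the difference of −0.55 was called (adjusted p = 0.0474). Zfp882, a zinc finger gene, and the unconventional myosin gene Myo15 were chosen after their values were seen, because they fell further than Cln3. Zfp882 fell by 2.15 in common, with −1.15 in striatum and −2.90 in cerebellum (interaction adjusted p = 0.00212). Myo15 fell by 2.43 and was not tested in striatum alone. Its interaction was called too (adjusted p = 0.0474). Near Thap1, 1 of 86 tested genes within 10 Mb was called (1.16%).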

How the data were processed

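RNA sequencing was available for 14 samples as 1 table of raw read counts per gene symbol for each, with 23337 symbols, as the authors deposited it. The tools named, per the submitters' processing notes, are STAR, HTSeq 0.6.1p1, cutadapt 1.13 and DESeq2, with build mm10. Which annotation was counted, and whether by strand, is not given in the sources used here. Counts of overlapping genes are therefore uncertain.

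Groups came from the labels. Counts were scaled with TMM factors over all 14 libraries and filtered with filterByExpr (minimum count 10, minimum total 15) in edgeR 4.0.16 (R 4.3.3). The robust quasi-likelihood test of genotype in a model of tissue plus genotype gave the common effect. Fits by tissue and a genotype by tissue interaction were run beside it, with Benjamini-Hochberg adjustment over all tested genes. SE was taken as the log2 fold change divided by the root of F.

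The genes were named by rule. It took Thap1, then the 14 risen and 14 fallen genes of smallest p that moved alike with a mean of at least 1 CPM. It also took 10 and 10 of these not called in striatum, up to 6 and 6 called in neither tissue alone, and up to 4 members of each of 34 gene lists. Predicted symbols were skipped, and 1 gene that the rule takes is not reported here. Members, lists and motifs were chosen with earlier results of these data known. Coordinates and promoter sequences are RefSeq on GRCm38.p6, where 88.9% of symbols matched directly, 9.85% through a synonym, and 1.21% found no match. Exon overlaps are from GENCODE vM21.

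The fits were tested on simulated data in 5 runs, each with 200 genes changed alike in both tissues. False calls made up 2.93% of the calls in common, 6.07% in cerebellum alone and 12.7% in striatum alone. Changes of 1.5-fold were recovered in 86.9%, 86.3% and 26% of cases. Of changes of 1.25-fold, the fit of striatum alone recovered 2.69% and the common fit 46.6%. Other settings were DESeq2 1.42.0, limma-voom 3.58.1, other scalings, filters, weights and thresholds, a sex covariate, replicate blocks and leaving out each library.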

Additional observations from a re-analysis of the deposited data

Results flagged for a closer look

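In 7 of 158 groups of 4 cerebellar libraries examined, 1 library lay far from the other 3 by Dixon's criterion, a number close to the 1 in 20 that chance gives. Dph6 (Atpbd4) stood at 17.1 CPM in WT replicate 3, above 14.7 to 14.9 CPM in the others. Miga1 (Fam73a) stood at 150 CPM in WT replicate 1, above 136 to 137 CPM. Cpxm2 stood at 2.65 CPM in WT replicate 4, above 1.70 to 1.82 CPM. Nif3l1 stood at 31.9 CPM in cKO replicate 2, below 32.7 to 32.8 CPM, and Csad at 45.4 CPM there, above 43.5 to 43.7 CPM. Rftn1 stood at 8.66 CPM in WT replicate 4, below 10.6 to 10.7 CPM. Fa2h stood at 25.9 CPM in cKO replicate 2, below 28.6 to 29.1 CPM.

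Besides Zfp882 and Myo15, described above, the genotype effect differed between the tissues in the interaction test for 3 named genes. In these 3 both tissues moved in the same direction. The cerebellar minus striatal log2 fold change was 0.70 (0.698) for the myelin proteolipid gene Mal, with −1.08 in striatum and −0.37 in cerebellum. It was 0.69 (0.685) for Anln, which oligodendrocytes and dividing cells express, with −1.03 and −0.33. For Ppp2r3c it was −0.55 (−0.548). Mal and Anln fell less in cerebellum, and Ppp2r3c rose less there.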

How the results depend on the processing

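All 216 genes that moved alike kept their sign in the 12 other settings and the 14 fits without 1 library. Their genotypes overlapped in neither tissue by definition, so a kept sign was nearly fixed in advance and is no support. Of the 216 genes, 114 were called in all of these settings and fits. Counts depended on the setting. DESeq2 called 647 genes in common (161 higher, 486 lower), 153 in striatum alone and 228 for the difference between tissues. Limma-voom with quality weights called 1041 (300 higher, 741 lower), 186 and 102. At an adjusted p of 0.1 the counts were 596 (164 higher, 432 lower), 87 and 116, with 1773 in cerebellum alone. Equal weight of the tissues gave 405 lower genes.

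The replicate block within each tissue left 169 called genes (65 higher, 104 lower), 15 in striatum alone and 13 for the difference. It left 123 that moved alike, 69 of them lower and 110 not called in striatum alone. Same-numbered libraries of a tissue had correlations of 0.05 to 0.28 in their deviations from the group means, over 0.1 in 5 of 7 pairs. Of the 14 libraries 7 correlated best with their own number, so the numbers were not taken to pair the samples. It left 0 genes that moved alike and were called in neither tissue alone, where 27 stood without it, and 3 of 16 myelin genes called in place of 11 (16 with DESeq2). With this replicate block the calls were lost of Thap1, of all the genes named as called in neither tissue alone, and of Cldn11, Gfap, Gja1, Serpina3n, Psmb5, Ndufb4, Mrpl47, Asns, Echdc2, Srebf2, Anln, Stat2 and Tubb4a. The other called genes named here kept theirs, except that Zfp882 and Myo15 were not followed across settings.

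Without 1 library, 232 to 611 genes were called in common (80 to 221 higher, 152 to 390 lower), 3 to 122 in striatum alone, 739 to 1165 in cerebellum alone and 17 to 193 for the difference. Genes that moved alike were 169 to 313 (64 to 139 higher, 103 to 174 lower), with 132 to 258 not called in striatum alone. Striatal WT replicate 1 gave the highest counts in common, in striatum alone and among genes that moved alike. The striatal count was 12 without striatal WT replicate 3 or cKO replicate 2 and 3 without cKO replicate 1 or 3. The cerebellar count was 739 without cerebellar WT replicate 3 and 744 without cKO replicate 2. The permutation difference of Thap1 lay between −0.999 and −0.749. The biological coefficient of variation was 0.135 in striatum and 0.0722 in cerebellum. What the striatal sample number, depth and spread each contributed to its fewer calls was not tested.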
